A study of Mus musculus with 29 samples.

Results

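The 10 genes described here, Foxa1, Gata3, Elf3, Ehf, Grhl2, Grhl3, Klf5, Tbx2, Tbx3 and Ovol1, encode transcription factors tied to the luminal program of the urothelium, the epithelium that lines the bladder. They were taken by symbol from each expression table of a mouse RNA-seq series, in which 35199 genes are listed, and all 10 were found. All 10 also passed the filter on low values in every comparison.

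The study activated Pparg in basal cells and asked what became of them in healthy bladders and in bladders exposed to the carcinogen BBN, a nitrosamine given in drinking water. Mutant mice carried a VP16;Pparg fusion, whose VP16 part is a constant transcriptional activator, behind a CAG promoter and a floxed stop in the Rosa26 locus, together with a tamoxifen-inducible Cre driven by Krt5 (the labels give this genotype as K5VP16;Pparg+/-). Controls are labelled wild type, and the study's methods describe control mice that carry the Cre with an mTmG reporter or the VP16;Pparg allele. All mice were adults at induction. From mice without BBN, induced with intraperitoneal tamoxifen, 4 control and 5 mutant libraries were made of urothelial cells 4 days after induction. By the study's methods these were cells sorted for GFP, which the mTmG reporter turns on in Krt5-Cre cells of both groups. The VP16;Pparg allele also carries an EGFP, so GFP in mutant cells can come from either allele. Tumor mice received 0.05% BBN for 5 months and, 1 month into it, tamoxifen in the bladder under ultrasound guidance. Their tumors were taken 4 months after induction. From them laser capture gave 3 basal tumors of controls, 3 luminal tumors of mutants, and, from mutant lesions of mixed type, 3 libraries of the luminal domain and 3 of the basal-like domain. The sources do not state whether any of these libraries came from the same animal, so a p-value measures the spread between libraries.

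The urothelium has basal, intermediate and superficial cells, and its luminal program ends in the uroplakin-bearing superficial cell. FOXA1 and GATA3 open and hold enhancers of luminal genes and are known to work with the nuclear receptor PPARG. ELF3 and EHF are epithelial ETS factors, GRHL2 and GRHL3 are Grainyhead factors that maintain junctions and barrier, KLF5 is a zinc finger factor of epithelial maturation, TBX2 and TBX3 are T-box factors, and OVOL1 is a zinc finger repressor of mesenchymal genes.

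Promoter windows of RefSeq (GRCm38.p6, 250 bases before to 50 bases after a gene's start) were present for 4 of the 10 genes, Foxa1, Gata3, Elf3 and Grhl3. All 4 are shown, as the start sites of factors whose tumor levels are given below. The RefSeq start lies inside the GENCODE gene span used below by 11434 bases for Gata3, 805 for Foxa1 and 96 for Elf3, where other annotated transcripts begin further upstream, so the Gata3 and Foxa1 stretches are intronic to those. The stretch before the start that holds no annotated exon of the gene is printed 5′ to 3′ on the minus strand, on which each of these genes lies, for Elf3 at chr1:135258569-135258722, for Gata3 at chr2:9878601-9878850, for Grhl3 at chr4:135573633-135573882 and for Foxa1 at chr12:57546122-57546361. Capitals mark the only match to any motif searched.
Elf3: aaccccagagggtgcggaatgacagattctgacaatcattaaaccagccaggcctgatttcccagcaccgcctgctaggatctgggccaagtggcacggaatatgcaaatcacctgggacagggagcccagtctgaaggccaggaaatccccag
Gata3: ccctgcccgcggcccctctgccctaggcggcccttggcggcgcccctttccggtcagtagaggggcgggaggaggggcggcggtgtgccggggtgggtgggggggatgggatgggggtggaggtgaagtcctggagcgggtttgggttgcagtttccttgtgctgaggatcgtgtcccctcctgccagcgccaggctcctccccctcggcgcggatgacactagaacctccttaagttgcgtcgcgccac
Grhl3: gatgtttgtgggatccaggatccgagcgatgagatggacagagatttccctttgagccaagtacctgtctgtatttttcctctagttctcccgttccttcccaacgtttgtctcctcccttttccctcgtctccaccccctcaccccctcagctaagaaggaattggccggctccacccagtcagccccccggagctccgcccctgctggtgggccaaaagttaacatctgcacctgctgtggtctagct
Foxa1: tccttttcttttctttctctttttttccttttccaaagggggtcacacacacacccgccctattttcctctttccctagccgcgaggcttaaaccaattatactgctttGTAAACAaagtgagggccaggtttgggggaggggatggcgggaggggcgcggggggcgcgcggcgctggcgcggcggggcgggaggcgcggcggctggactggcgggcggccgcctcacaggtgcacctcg
The windows were searched on both strands for the direct repeat of the PPAR response element, for the AGGTCA core that the repeat contains, and for the FOXA letters TGTTTAC, for letters of GATA factors, AGATAA, for the ETS letters CCGGAAG, for Grainyhead (AACCNGTT), KLF (CCACACCC) and T-box (AGGTGTGA) letters. The FOXA letters occurred once, as their reverse complement 141 bases before the RefSeq start of Foxa1, inside the longer annotated span, and 3.65% of all 32851 windows hold them. The AGGTCA core, found in 16.3% of all windows, and the other 6 motifs were in none of the 4 windows, which says only that these letters are absent there.

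In the sorted cells at 4 days, none of the 10 factors passed the test across all genes, and the largest differences were modest and negative. Klf5, Gata3, Foxa1, Tbx3 and Grhl2 had differences of -0.49 to -0.25 on the log2 scale, none of them called, and Elf3 and Grhl3 had small positive differences. Values are the authors' normalized counts. Differences are on the scale of log2(normalized count + 1), mutant minus control, with a standard error (SE) from limma and a p-value adjusted over all 16413 genes tested (Benjamini-Hochberg), and a call is an adjusted p under 0.05. In this comparison 2.85% of all genes were called, against 0 of the 10 factors, and 9.01% of all genes were lower at an unadjusted p under 0.05, against 4 of the 10.

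**Figure D1:**
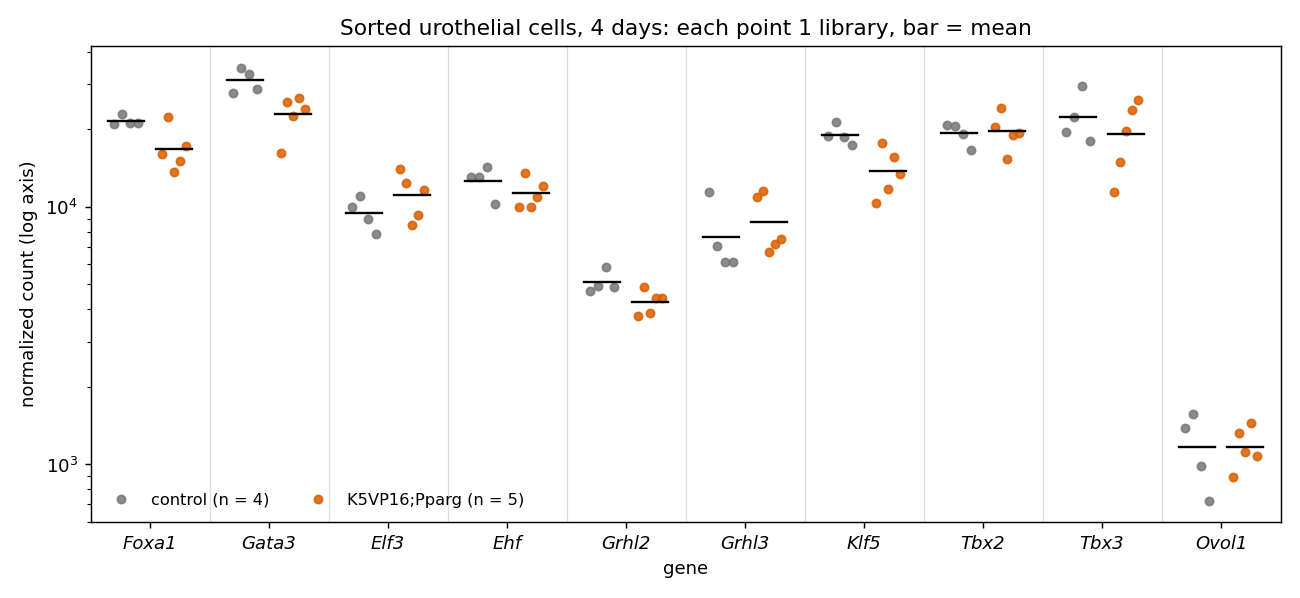
Normalized counts (log axis) of the 10 factors in sorted urothelial cells at 4 days, with 1 point per library, 4 controls in grey and 5 mutants in orange, and a bar at each mean. For Gata3 every mutant library lies below every control library, and for the other genes the groups overlap.

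Gata3, a zinc finger factor required for urothelial differentiation, lies at chr2:9857078-9890034 (GRCm38) on the minus strand. Its normalized counts were 27587, 34746, 32931 and 28719 in the controls and 16167, 25606, 22601, 26425 and 23925 in the mutants. The highest mutant library was below the lowest control, an ordering that 4.51% of all genes tested also had in this direction. The log2 difference was -0.45 (SE 0.15, adjusted p = 0.14, limma), which corresponds to a mutant level 0.733 times that of controls. Klf5, at chr14:99298691-99315036 on the plus strand, read 18922, 21380, 18627 and 17372 in the controls and 10380, 17767, 11786, 15652 and 13400 in the mutants. Only the second mutant library reached into the control range, and the log2 difference was -0.49 (SE 0.16, adjusted p = 0.114, limma).

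Foxa1, a forkhead factor that can bind closed chromatin, lies at chr12:57540628-57546916 on the minus strand. It read 20979, 22945, 21173 and 21220 in the controls and 16112, 22270, 13668, 15027 and 17201 in the mutants. The controls were tightly grouped and 4 of the 5 mutants lay below them, with the second mutant library again inside the control range. The log2 difference was -0.38 (SE 0.14, adjusted p = 0.155, limma). Without that mutant library it was -0.48 and passed the threshold (adjusted p = 0.0365, limma). It passed with array weights (adjusted p = 0.0449) and with quantile normalization (adjusted p = 0.0495) too, so that the call of Foxa1 rests on how the libraries are weighted and scaled.

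Of the Grainyhead pair, Grhl2 (chr15:37233036-37363569, plus strand) spanned 4703 to 5842 in control and 3780 to 4885 in mutant libraries, with a log2 difference of -0.25 (SE 0.10, adjusted p = 0.203, limma). Grhl3 (chr4:135541888-135573630, minus strand) spanned 6094 to 11407 and 6661 to 11552, with a difference of 0.21 (SE 0.23, adjusted p = 0.653). The groups overlapped widely for Grhl3, whose first control library and first and second mutant libraries were all well above the rest. Of the ETS pair, Elf3 (chr1:135253575-135258568, minus strand) spanned 7822 to 10990 in control and 8487 to 13980 in mutant libraries, a difference of 0.23 (SE 0.16, adjusted p = 0.46). Ehf (chr2:103263433-103303278, minus strand) differed by -0.16 (SE 0.13, adjusted p = 0.519). Tbx2 (chr11:85832551-85841948, plus strand) and Tbx3 (chr5:119670669-119684724, plus strand) differed by 0.02 and -0.26, and Ovol1 (chr19:5549136-5560646, minus strand) by 0.05, with adjusted p from 0.587 to 0.95 by limma. With each library left out the Tbx3 difference ranged from -0.39 to -0.091. For none of these 7 genes were the groups apart.

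The 4-day values stand beside changes elsewhere in the same cells. In the list of 10 urothelial differentiation genes (uroplakins, Krt20 and simple keratins) every log2 difference was positive, with a median of 0.51, and 1 gene, Krt20, a keratin of superficial cells, was called (1.83, SE 0.40, adjusted p = 0.0444). The 10 factors had a median of -0.21, and all genes tested a median of 0.0045. Among the 10 epithelial genes known as GRHL2 targets, 8 differences were positive and none of these was called, while Epcam, an epithelial adhesion molecule, fell (-0.72, SE 0.12, adjusted p = 0.0189). Pparg itself read 9381 to 9999 in controls and 6111 to 9032 in mutants (-0.36, SE 0.12, adjusted p = 0.126), a value in which native and transgene transcripts are not separated here. Of 5 barrier genes Tgm1, a crosslinking enzyme, was called (1.69, SE 0.33, adjusted p = 0.0284). Of 15 other luminal regulators 6 differences were positive and none was called. Of 8 basal regulators tested none was called either.

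The libraries also differed in other ways. Y-linked genes were high in 3 controls (a mean log2 value of 11.05 to 11.11) and low in 1 control and all 5 mutants (5.16 to 5.91). Among those 6 low libraries, a single control against 5 mutants, given here without a test, Gata3 differed by -0.29, Klf5 by -0.48 and Foxa1 by -0.34. Although the cells were gated on GFP, all 7 fibroblast markers were present and had positive differences, 1 of them called (Lum). Their summed level was 11668 to 84727 in controls and 30691 to 217844 in mutants. All 5 smooth muscle markers also had positive differences, with a median of 2.03 and none called, and summed to 89 to 876 in controls and 293 to 2213 in mutants. Leukocyte markers summed to 1063 to 1941 and 757 to 2515. The 5 basal cell markers summed to 157227 to 186699 in controls and 100790 to 143718 in mutants without overlap. Of these Col17a1, a hemidesmosome collagen, fell (-1.34, SE 0.27, adjusted p = 0.0315, limma), and Krt14 had a positive difference (1.89, adjusted p = 0.197). The part of these differences in the values of the factors was not tested. In bulk RNA, fewer cells of a type and less RNA per cell cannot be told apart.

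In luminal tumors the factors stood mostly above their level in basal tumors. Of the 10 differences 9 were positive, with a median of 1.89 on the log2 scale, where the median of all 15357 genes tested was -0.11 and 46% of them were positive. Elf3 was called higher, 1 of 10 factors, where 1.26% of all genes were called higher. In 5 factors, Elf3, Tbx2, Grhl3, Foxa1 and Ehf, every luminal tumor exceeded every basal tumor, where 9.98% of all genes did so. Grhl2 had a difference near 0. Groups here were 3 basal and 3 luminal tumors in a fit that also held 2 luminal domains.

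**Figure D2:**
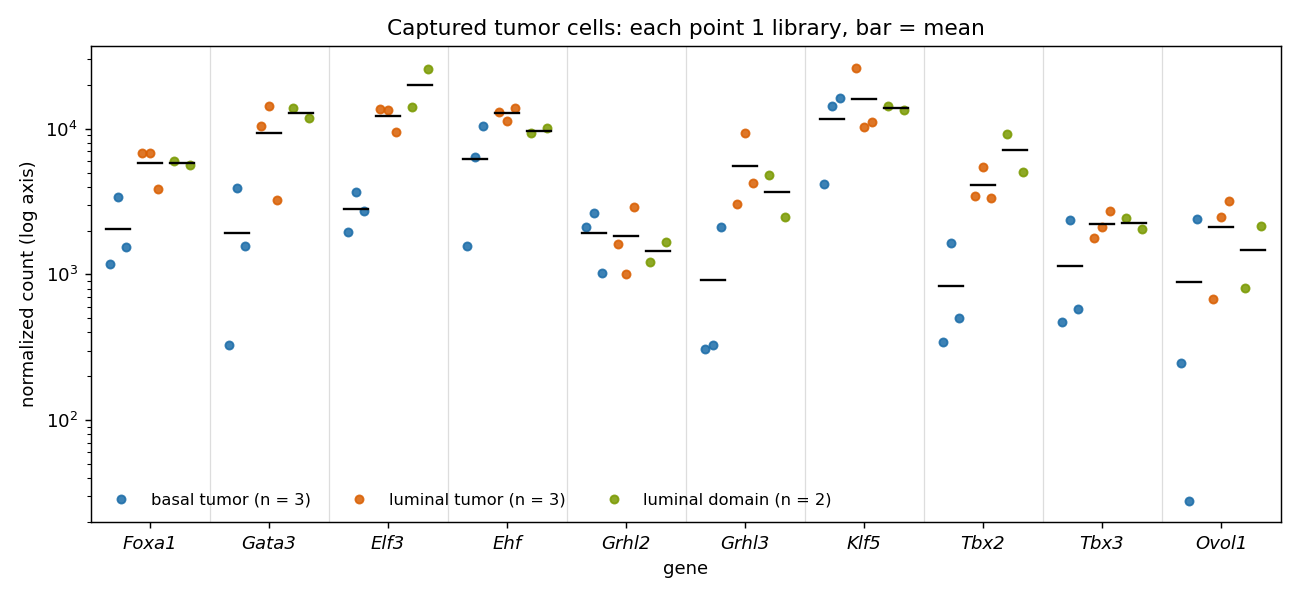
Normalized counts (log axis) of the 10 factors in captured tumor cells, with 1 point per library for 3 basal tumors, 3 luminal tumors and 2 luminal domains of the same table, and a bar at each mean. Basal tumors lie below both luminal groups for Elf3, Tbx2, Foxa1 and Grhl3, and all groups overlap for Grhl2.

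Elf3, the epithelial ETS factor, read 1967, 3710 and 2737 in the basal tumors and 13660, 13481 and 9564 in the luminal tumors. The means were 2805 ± 873 and 12235 ± 2315 (SD, n = 3 each). The fitted difference on the log2 scale corresponds to 4.45-fold. The lowest luminal tumor was well above the highest basal tumor, and Elf3 was called (2.15, SE 0.36, adjusted p = 0.0292, limma). Its direction held in each fit without 1 tumor library, at 1.92 to 2.38. The call was lost without basal tumor 1 or 3 or luminal tumor 1 or 2 (adjusted p = 0.065 to 0.119, limma). It was also lost with no filter on low values and without a trend. Ehf, its relative, read 1572, 6396 and 10537 against 13116, 11402 and 13986. The basal tumors spread widely while the luminal tumors were close together, and the difference of 1.43 (SE 0.59, adjusted p = 0.237) did not pass. It was 0.64 without basal tumor 1 and 2.01 without basal tumor 3.

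Tbx2, a T-box repressor, read 345, 1631 and 504 in the basal tumors and 3444, 5510 and 3343 in the luminal tumors, a difference of 2.60 (SE 0.57, adjusted p = 0.0529, limma). It lay just short of the threshold and passed without basal tumor 2, its highest basal library (adjusted p = 0.0202, limma). Tbx3 read 473, 2373 and 579 against 1791, 2116 and 2716 (1.33, SE 0.59, adjusted p = 0.27), and its groups overlapped because of the same basal tumor. With each library left out its difference ranged from 0.89 to 2.05. Grhl3, known for barrier formation, read 305, 330 and 2125 against 3062, 9335 and 4252 (3.05, SE 0.76, adjusted p = 0.0766). The third basal tumor was the high one for this gene, and without it Grhl3 passed (3.96, adjusted p = 0.0334, limma).

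Foxa1 read 1170, 3405 and 1543 in the basal tumors and 6782, 6837 and 3889 in the luminal tumors. The groups came close without overlapping, with a difference of 1.62 (SE 0.44, adjusted p = 0.0955). Gata3 read 327, 3909 and 1567 against 10387, 14356 and 3234. The third luminal tumor lay inside the basal range, and the difference of 2.64 (SE 0.84, adjusted p = 0.144) did not pass. It was 1.66 without basal tumor 1 and 3.45 without basal tumor 2. The third luminal library was also the lowest luminal tumor for Foxa1, Elf3 and Tbx2, but the highest for Grhl2, Ehf, Tbx3 and Ovol1.

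The other 3 factors had weak or unstable differences. Ovol1 read 245, 27.9 and 2398 in the basal tumors and 679, 2461 and 3196 in the luminal tumors, so that 1 basal tumor lay inside the luminal range. The difference was 2.76 (SE 1.37, adjusted p = 0.321, limma). It was 1.19 without basal tumor 2 and 4.37 without basal tumor 3. Klf5 read 4167, 14301 and 16395 against 26349, 10243 and 11220 (0.54, SE 0.55, adjusted p = 0.649). Grhl2 read 2127, 2644 and 1025 against 1607, 1014 and 2927 (-0.09, SE 0.51, adjusted p = 0.946). For Klf5 and Grhl2 leaving out 1 library turned the sign, with ranges of -0.08 to 0.91 and -0.49 to 0.27.

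**Figure D3:**
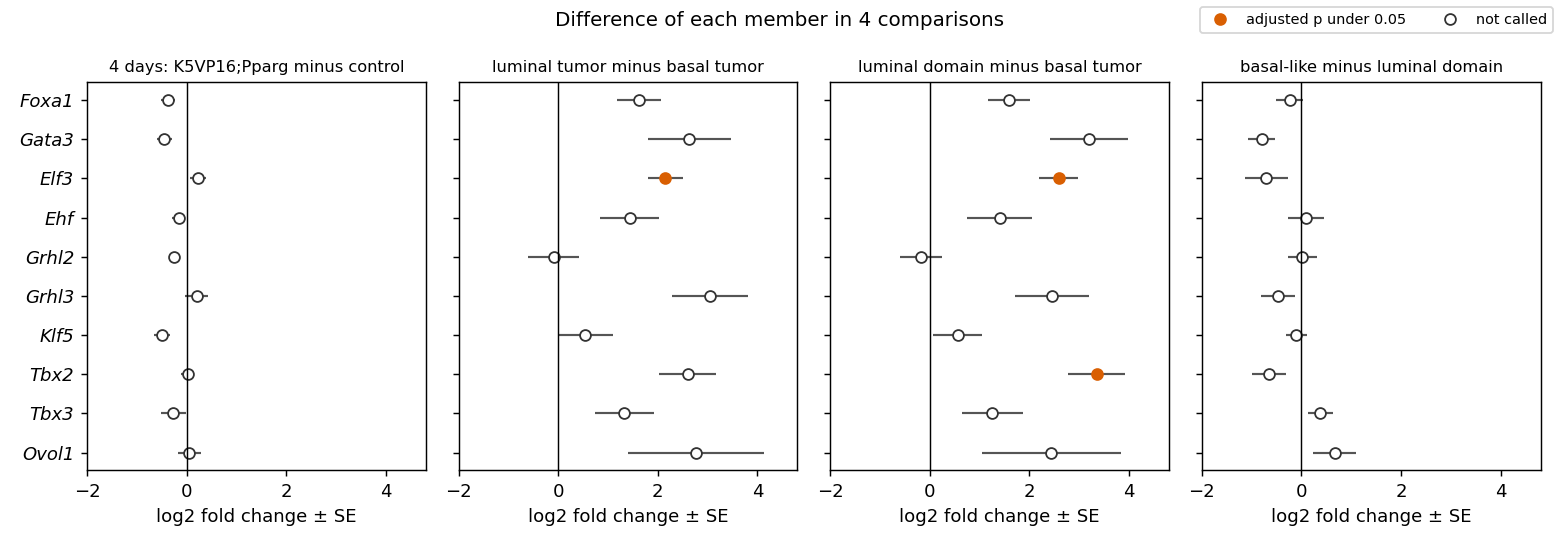
Log2 difference of each factor with its SE in 4 comparisons, named above each panel, filled where the adjusted p was under 0.05. The 4-day differences lie within 0.49 of 0, while Elf3 in luminal tumors and Elf3 and Tbx2 in luminal domains were called higher than in basal tumors.

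Gene lists around the factors were set beside them. All 10 urothelial differentiation genes were higher in every luminal tumor than in any basal tumor, and 6 were called (Upk1a, Upk2, Upk3a, Upk3b, Krt8 and Krt19), with a list median of 5.74. Of 5 barrier genes 3 differences were positive, and Ivl, a cornified envelope protein (5.36, SE 1.01, adjusted p = 0.0364), and Ocln, a tight junction protein (2.65, SE 0.52, adjusted p = 0.0403), were called. Of the 10 epithelial genes known as GRHL2 targets 9 differences were positive and 2 were called, Rab25 (1.73, SE 0.36, adjusted p = 0.0467), a vesicle transport GTPase, and Spint1 (2.45, SE 0.47, adjusted p = 0.0368), a protease inhibitor, while Grhl2 itself had a difference near 0. All 6 mesenchymal regulators (Zeb, Snai and Twist genes) had negative differences, with a median of -2.76, and none was called. Pparg, at 13.0 to 126 in basal and 3579 to 8632 in luminal tumors, was the only one called of 15 other luminal regulators (6.74, SE 0.80, adjusted p = 0.0135, limma). Native and transgene transcripts are not separated in this value, and only the luminal tumors came from mutants with the induced transgene. The list had 7 positive and 8 negative differences and a median of -0.0018. Basal regulators had 7 negative differences of 8, none called.

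**Figure D4:**
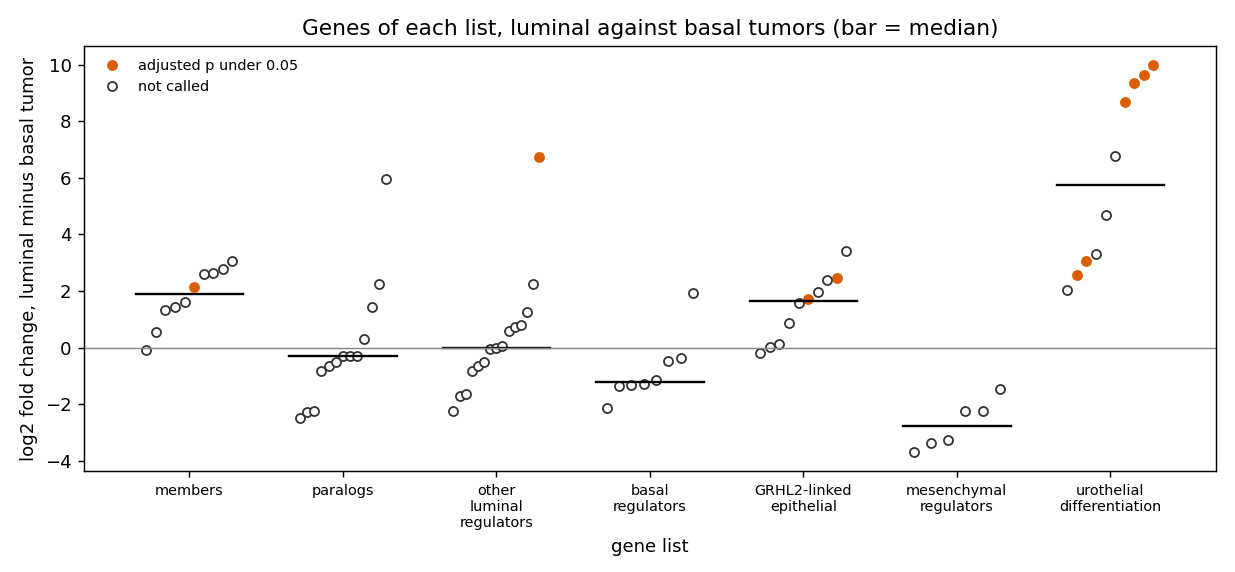
Log2 difference between luminal and basal tumors for each tested gene of 7 lists, filled where the adjusted p was under 0.05, with a bar at each median. The factors have a median of 1.89 with 1 gene called, and the differentiation genes a median of 5.74 with 6 called.

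Relatives of the factors were listed too. Of 22 paralogs 13 were tested, with a median of -0.30 and none called. Gata2 had the largest difference among them, at 8.46, 982 and 28.3 in basal tumors and 4349, 5991 and 2582 in luminal tumors (5.97, SE 1.43, adjusted p = 0.0684), and Grhl1 was next (2.25, SE 0.87, adjusted p = 0.212). In both the groups did not overlap. Foxa2 was listed at 0 in every library of the tables used.

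Non-epithelial markers also differed between these tumors. Fibroblast markers summed to 45143 to 67706 in basal tumors and 212 to 17149 in luminal tumors, with all 7 differences negative and 3 called (Col1a1, Col1a2 and Pdgfrb). Smooth muscle markers summed to 4745 to 42943 and 12 to 1053, with Acta2 and Cnn1 called lower. Leukocyte markers summed to 25504 to 133964 and 930 to 9221, none called, and to 2919 to 11240 and 717 to 2106 without Lyz2. Endothelial markers summed to 1252 to 2287 and 370 to 1053, with all 4 differences negative (median -3.38) and none called. All 5 basal cell markers had negative differences, with Col17a1 and Itgb4 called. Their part in the result was not tested. When each library was instead scaled to the epithelial genes Epcam and Cdh1, an alternative added after the data were seen, 9 differences stayed positive and Elf3 was 1.81 (adjusted p = 0.146), Tbx2 2.25 (0.133) and Foxa1 1.28 (0.358), and no factor was called.

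The luminal domains of mixed lesions, set against the same 3 basal tumors in a table of their own, gave Elf3 and Tbx2 as called. These comparisons share the basal tumors, and 2 of the 3 domain libraries also stood in the tumor table. Of the 10 differences 9 were positive, with a median of 2.02, where all 14921 genes tested had a median of 0.0097 and 50.4% were positive. The 2 factors called compare with 1.7% of all genes called higher, and the 5 whose groups did not overlap (Elf3, Tbx2, Gata3, Foxa1 and Grhl3) with 14% of all genes.

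Elf3 read 2068, 3825 and 2846 in the basal tumors and 14965, 27884 and 11701 in the domains, a fitted log2 difference that corresponds to 6.01-fold (2.59, SE 0.39, adjusted p = 0.0258, limma). Tbx2 read 364, 1687 and 526 against 9922, 5457 and 6374, which corresponds to 10.2-fold on the fitted scale (3.35, SE 0.57, adjusted p = 0.0329, limma). Both stood apart from the basal tumors in every library. Each call was nevertheless lost in 5 of 6 fits without 1 library and held only without basal tumor 2 (adjusted p = 0.0266 for Elf3 and 0.00927 for Tbx2). When scaled to Epcam and Cdh1, Tbx2 stayed called (2.90, adjusted p = 0.0443) and Elf3 did not (2.14, adjusted p = 0.102). With no filter on low values Elf3 stayed called and Tbx2 did not, and without a trend both calls were lost.

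Gata3 read 349.96, 4098 and 1656 in the basal tumors and 14990, 13007 and 9478 in the domains. The groups were well apart, but the basal tumors varied so much that the difference of 3.20 (SE 0.78, adjusted p = 0.0791) did not pass. Foxa1 read 1236, 3526 and 1612 against 6475, 6084 and 4881 (1.59, SE 0.41, adjusted p = 0.0902). Grhl3 read 321, 341 and 2215 against 5183, 2675 and 2915 (2.46, SE 0.74, adjusted p = 0.126). Ehf, Tbx3 and Ovol1 had differences of 1.40, 1.25 and 2.44 with overlapping groups, which ranged from 0.62 to 1.98, 0.83 to 1.97 and 0.86 to 4.05 when 1 library was left out, with the lowest values without basal tumor 1 for Ehf and Tbx3 and without basal tumor 2 for Ovol1. Klf5 and Grhl2 differed by 0.57 and -0.18. The adjusted p of these 5 factors ran from 0.277 to 0.849 by limma. In this table fibroblast markers summed to 46663 to 71458 in basal tumors and 5298 to 31667 in the domains, with all 7 differences negative and none called. Smooth muscle markers summed to 4930 to 45206 and 1032 to 1622, with all 5 negative and Acta2 and Cnn1 called. All 5 basal cell markers had negative differences, 4 without overlap and none called. Leukocyte markers summed to 26607 to 141000 and 8620 to 15934 without overlap, with 4 positive and 4 negative differences, and their sums without Lyz2 overlapped, at 3119 to 11505 and 2333 to 3667. The part of these markers in the values of the factors was not tested. Ivl and Ocln of the barrier genes were called here too (5.20 and 2.62, adjusted p = 0.0482 and 0.0479, limma).

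Luminal tumors and luminal domains were compared within the tumor table, 3 libraries against 2. No factor was called, and no gene of 16640 was called (0%), where 4.57% had an unadjusted p under 0.05. The differences of the factors ranged from -0.78 for Tbx2 (SE 0.64) to 0.52 for Grhl3 (SE 0.84), so that differences of this size could not be resolved with these libraries. All 7 fibroblast markers (median -3.22), all 4 endothelial markers (median -3.59) and all 5 basal cell markers (median -1.58) had negative differences. So did 4 of 5 smooth muscle markers (median -2.62) and 7 of 9 leukocyte markers (median -1.26). None of these markers was called, and their part was not tested.

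Within mixed lesions the basal-like domain was compared with the luminal domain, 3 libraries each. No factor was called, and no gene of 14874 was called (0%), where 757 genes (5.09%) had an unadjusted p under 0.05 by limma, Gata3 among the factors. Gata3 read 14566, 12802 and 9320 in the luminal domains and 9240, 6602 and 5432 in the basal-like domains. The highest basal-like library lay just under the lowest luminal one, an ordering in this direction shared by 5.14% of all genes. The difference, basal-like minus luminal, was -0.80 (SE 0.28, adjusted p = 0.935, limma). Tbx3 was ordered the other way, at 2576, 2212 and 1699 against 2884, 2633 and 2828 (0.38, SE 0.25, adjusted p = 0.935), as were 5.62% of all genes.

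**Figure D5:**
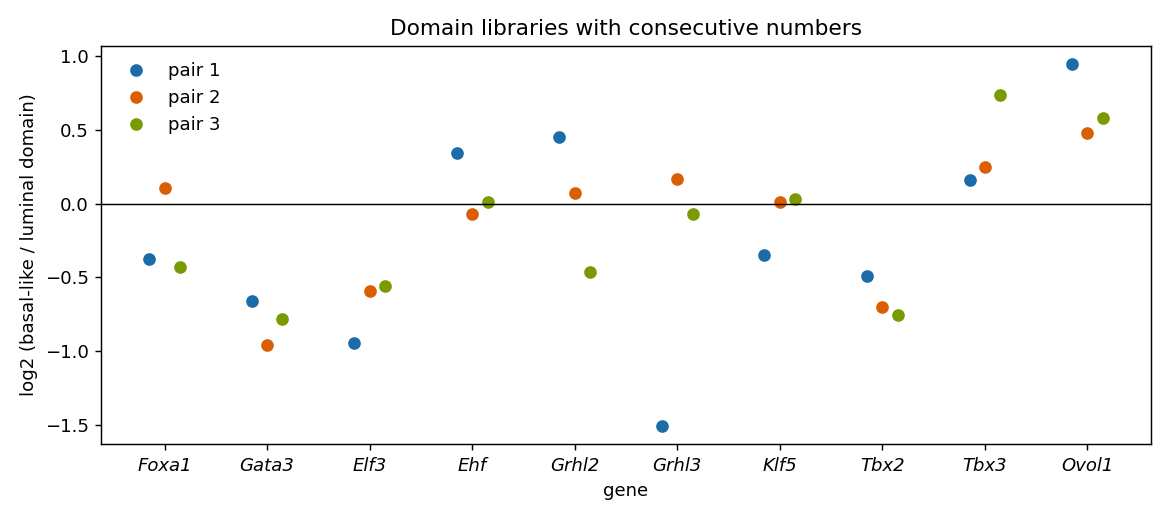
Log2 ratio of the basal-like to the luminal domain for each factor in 3 pairs of libraries with consecutive numbers in the table's header. Gata3, Elf3 and Tbx2 are below 0 in all 3 pairs, and Tbx3 and Ovol1 above 0 in all 3.

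Libraries of the domains with consecutive numbers in the header deviated together from their group means (correlations over genes of 0.363, 0.352 and 0.33, against -0.205 to -0.114 for the other combinations), although no source says that they are pairs. Deviations from a group mean cancel out within the group, so the negative values follow from the positive ones and are no separate evidence of pairs. In these pairs Gata3 was -0.66, -0.96 and -0.78, Elf3 -0.94, -0.59 and -0.56, and Tbx2 -0.49, -0.70 and -0.76. These 3 factors were lower in the basal-like library of each pair, as were 17.6% of all genes. Ovol1, with a difference of 0.67 (SE 0.43), and Tbx3 were higher in each, as were 17.7% of all genes. Foxa1, Klf5, Ehf and Grhl2 differed by -0.23 to 0.09, and Grhl3 by -0.47, a value that rests on the first pair, at -1.51. With the pairs as a replicate block, 1 gene of all was called and none of the factors, and the adjusted p of Gata3 was 0.148, of Elf3 0.172 and of Tbx2 0.198 by limma. All 10 differentiation genes had negative differences between the domains, with a median of -1.48 and none called. Fibroblast markers summed to 5520 to 32698 in the luminal and 14142 to 104544 in the basal-like domains. All 5 basal cell markers (median 0.49), all 3 smooth muscle markers tested (median 1.14) and 5 of 8 leukocyte markers (median 0.81) had positive differences, none called. The part of these markers in the values of the factors was not tested.

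Across the 4 comparisons the factors could be likened by their profile of log2 differences. The measure was the root mean square difference between the 4 values of a pair of genes, searched over the 10847 genes that averaged 100 normalized counts or more, and the comparisons share libraries. The closest factors were Ehf and Tbx3 (0.178), Ehf and Foxa1 (0.237), and Gata3 and Tbx2 (0.257). Among all genes the nearest to Elf3 was Slc25a53 (0.0707), to Foxa1 Rida (0.0987), to Gata3 Acvr2b (0.148) and to Tbx2 Enpp4 (0.124). By size, the factors comprised genes with a large tumor difference and a negative domain difference (Gata3, Elf3, Tbx2 and Grhl3), Ovol1 with a large tumor difference and a positive domain difference, genes with a tumor difference between 1 and 2 (Foxa1, Ehf and Tbx3), and Klf5 and Grhl2, with differences under 1. Most of these differences were not called, and the classes shift when 1 library is left out. In luminal tumors Ehf then ranged from 0.64 to 2.01, Tbx3 from 0.89 to 2.05, Gata3 from 1.66 to 3.45 and Ovol1 from 1.19 to 4.37.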

How the data were processed

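RNA-seq of sorted urothelial cells and of laser-captured tumor cells (SMART-Seq v4, which does not keep strand) was used. The deposited signal values are counts that the authors estimated with kallisto (0.44.0, per the submitters' processing notes), summed to genes with tximport and normalized with DESeq2 (1.18), each table on its own, by factors that differ from gene to gene. Reads could not be recovered from them, so the depth reached in each library is unknown, and the paper gives only a targeted depth. Normalized counts summed to 36520193 to 41435665 per library at 4 days and to 41697178 to 53252995 in the tumor table. The build of the kallisto index is not given in the sources used here. Further deposited lists hold the authors' own fold changes and p-values and were not used. The table of mice with and without 1 month of BBN (8 columns) is not used here, because nothing says which column belongs to which condition. Libraries are numbered within a group by column order, since the headers hold no replicate numbers.

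A gene entered a test when it reached 10 normalized counts in a number of libraries equal to the smaller group. Values of log2(normalized count + 1) were fitted with limma 3.58.1 in R 4.3.3 (lmFit, then trended eBayes), two-sided, with Benjamini-Hochberg adjustment at 0.05. The log scale understates changes of low genes. The scripts were tested on simulated data. Alternatives were a pseudocount of 5, no filter, no trend, array weights, quantile and upper-quartile scaling, other tables or groupings, and each library left out in turn. All 10 factors were named in every comparison, and paralogs where called or of a factor's family. Other lists were given as counts, with called genes chosen from them by their relevance after values were seen. The factors and lists were chosen with earlier results of these data known. Gene positions are from GENCODE M21 (GRCm38), and promoters from RefSeq. Gata3, Elf3, Grhl2, Tbx3 and Ovol1 overlap other annotated genes, and for Gata3 an overlapping gene on the same strand reached 1660 normalized counts. Figures were drawn with matplotlib.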

Additional observations from a re-analysis of the deposited data

Results flagged for a closer look

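In the 4 control libraries at 4 days, Foxa1 had a highest value of 22945 whose gap to the next library took 0.877 of the range of the group, while the other 3 libraries lay between 20979 and 21220. Chance gives such a gap in about 1 of 20 groups, and 20 groups were examined.

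Gata3 was lower in every mutant than in every control library at 4 days (a log2 difference of -0.448) and higher in every luminal domain than in every basal tumor (3.20). The difference between these values was not tested, since they come from separate tables with other controls.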

How the results depend on the processing

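Elf3 in luminal tumors, and Elf3 and Tbx2 in luminal domains, kept their direction under every alternative run. Elf3 lost its call in luminal tumors without basal tumor 1 (1.92), basal tumor 3 (2.16), luminal tumor 1 (2.06) or luminal tumor 2 (2.07). In luminal domains Elf3 (2.23 to 2.85) and Tbx2 (2.90 to 3.53) both lost their calls without basal tumor 1, basal tumor 3 or any 1 luminal domain library. The number of factors called was 0 at 4 days, 1 in luminal tumors, 2 in luminal domains and 0 in the other 2 comparisons. At 4 days it was 1 with array weights and 1 with quantile normalization (Foxa1), and ran from 0 to 1 when single libraries were dropped. In luminal tumors it was 2 with a pseudocount of 5 and with array weights (Tbx2 added), 0 with no filter on low values, without a trend and when scaled to Epcam and Cdh1, and 4 when all 5 luminal libraries were pooled (Elf3, Tbx2, Foxa1 and Grhl3). It was 0 to 3 with each library left out, with Foxa1 (2.07) and Tbx2 (3.25) added without basal tumor 2 and Grhl3 (3.96) called without basal tumor 3. In luminal domains it was 1 with no filter, 0 without a trend, 1 when scaled to Epcam and Cdh1, and 0 to 4 with each library left out, with Foxa1 (2.03) and Gata3 (4.01) added without basal tumor 2 and Grhl3 (3.37) called without basal tumor 3.

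Of all genes, 467 were called at 4 days, against 269 without a trend, 1054 with array weights, 147 in the smaller table and 129 to 596 with each library left out. In the smaller table Y-linked genes summed to 8130 to 8294 in the controls and 305 to 356 in the mutants. There the Y-linked difference and genotype cannot be told apart. The fit of libraries with low Y-linked genes (1 control against 5 mutants) bears on no call. It was chosen after seeing the data, like the scaling to Epcam and Cdh1. In luminal tumors 338 genes were called, against 52 with no filter, 142 without a trend, 195 when scaled to Epcam and Cdh1, 513 with luminal libraries pooled, 142 with the tumors fitted alone and 3 to 813 with each library left out. In luminal domains 377 were called, against 144 with no filter, 107 without a trend, 173 when scaled to Epcam and Cdh1 and 0 to 467 with each library left out. Without a trend, 20 genes were called between the domains and 7 between luminal tumors and luminal domains, where 0 to 1 were called with each library left out. With the replicate block of consecutive library numbers 1 gene was called between the domains and no factor. No paired analysis was possible for the other comparisons because their columns carry neither replicate numbers nor library numbers that are consecutive across groups.

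Differences near 0 changed sign. At 4 days Grhl3 was -0.42, Ovol1 -0.26 and Tbx2 -0.092 among the libraries with low Y-linked genes, where the lone control is the highest control for Grhl3, and Tbx2 was -0.032 with array weights, -0.057 with quantile and -0.0036 with upper-quartile scaling. With each library left out Ovol1 ranged from -0.16 to 0.22 and Tbx2 from -0.059 to 0.11. Grhl2 ranged from -0.49 to 0.27 in luminal tumors and from -0.58 to 0.10 in luminal domains, and Klf5 from -0.082 to 0.91 and from -0.053 to 0.93. Between the domains Ehf was -0.013 with array weights and ranged from -0.19 to 0.42, Grhl2 was -0.037 when scaled to Epcam and Cdh1 and ranged from -0.16 to 0.15, and Klf5 was 0.020 with quantile normalization and ranged from -0.20 to 0.024. Between luminal tumors and domains Foxa1 was 0.065 with array weights and Klf5 -0.15 with quantile normalization, and the ranges with each library left out were -0.18 to 0.23 for Foxa1, -0.16 to 0.61 for Grhl2, -0.37 to 0.31 for Klf5, -0.31 to 1.12 for Ovol1 and -0.21 to 0.092 for Tbx3. The causes were not tested. Upper-quartile scaling moved the median of all genes to -0.189 in luminal tumors and to -0.137 in luminal domains. Depth in reads is unknown for each library beyond the paper's target and sets no stated limit. With 2 or 3 libraries a group, the spread between libraries limits the precision.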
